A study of Mus musculus with 15 samples.

Results

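The liver X receptors (LXRs) are nuclear receptors that switch on genes for moving cholesterol out of the cell when oxysterols, oxidised forms of cholesterol, accumulate. Levels are given for 9 genes of that circuit, each found as exactly 1 row by its symbol among the 34245 genes of a table of macrophage differentiation and the 25965 genes of a table of interleukin 4 (IL4) treatment. They are Ch25h, which makes an oxysterol, the receptor genes Nr1h3 (LXR alpha) and Nr1h2 (LXR beta), the cholesterol exporters Abca1 and Abcg1, the lipoprotein gene Apoe, the ubiquitin ligase gene Mylip, the phospholipid enzyme gene Lpcat3, and Soat1, which esterifies cholesterol for storage. The genes were chosen by name as members of the circuit.

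Bone marrow of male C57BL/6 mice aged 8 to 10 weeks was cultured in colony-stimulating factor 1 (CSF1), which drives the growth and maturation of macrophages. RNA was read on the Ion Torrent platform. Precursors that had not attached had 2 days at 0.6 ng/ml CSF1 in 15% fetal calf serum, with a change to a new dish after the first day. Immature macrophages had the same 2 days and then 4 days at 12 ng/ml CSF1 in 10% serum. Mature macrophages had 1 day at 0.6 ng/ml in 15% serum, 2 days at 12 ng/ml and 7 days at 120 ng/ml, the last steps in 10% serum. In the second table, mature macrophages were cultured for a further 48 h at 120 ng/ml CSF1 with 20 ng/ml IL4 or without it. Each of the 5 groups had 3 libraries, whose titles number the mice 1 to 3. The column names of the IL4 table give each library a different mouse, so pairs by title number there may not be of 1 mouse. The RNA is that of whole cultures, in which fewer cells of a type and less RNA per cell cannot be told apart.

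The 9 differentiation libraries held 7897769 to 22167294 reads on genes and the 6 of the IL4 comparison held 2408531 to 4214266. The summed level of 8 macrophage markers ran from 7857 to 10064 CPM (reads scaled to a common library total, with TMM) in precursors, 20058 to 41532 CPM in immature and 35817 to 62263 CPM in mature macrophages. Lyz2, which neutrophils also use, held most of each sum, and the other 7 markers summed to 2031 to 2694 CPM in precursors, 6221 to 9649 CPM in immature and 6562 to 8600 CPM in mature macrophages. Of these 7, Adgre1 and Mertk had their highest mean in mature macrophages and Csf1r, Cd68, Mrc1 and Fcgr1 in immature ones. Itgam averaged 1003 ± 195 CPM in precursors, 739 ± 92.1 in immature and 1043 ± 93.1 in mature macrophages (SD, n = 3 each). Precursor libraries also held 12347 to 18725 CPM of 9 neutrophil markers, against 136 to 195 CPM in immature and 0.459 to 1.17 CPM in mature macrophages, where 7 of the 9 had no read. Retnla, a defining IL4 response gene, averaged 8824 ± 8529 CPM with IL4 (SD, n = 3) and had no read without it. Arg1 averaged 1801 ± 137 CPM with IL4 and 5.10 ± 6.05 without it, and Mgl2 78.1 ± 31.7 and 2.34 ± 1.73. Mrc1, the other listed IL4 response gene in that table, went the other way, at 980 ± 225 CPM with IL4 and 1777 ± 456 without it. Of the 8 macrophage markers, 7 were in the IL4 table and summed to 41797 to 56705 CPM without IL4 and 20305 to 22244 CPM with it. Lyz2 averaged 42564 ± 6380 CPM without IL4 and 15482 ± 1401 with it. The means of Mertk, Fcgr1, Mrc1, Csf1r and Itgam were also lower with IL4, and that of Cd68 was not. The part of this in the IL4 results was not tested. The 13 mitochondrial genes summed to 616 to 4483 CPM across the differentiation libraries and to at most 0.234 CPM in the IL4 table, so levels were compared within a table only.

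LXRs sit on DNA as partners of retinoid X receptors and, without ligand, keep corepressors at their target genes. Oxysterols release that repression, and the induced genes then export cholesterol to lipoproteins, remodel membrane phospholipids and, through Mylip, degrade the receptors that bring lipoproteins in. Macrophages are known for this circuit because they take in the cholesterol of the cells they engulf and cannot break down its ring.

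The Abca1 and Ch25h promoters are printed because Abca1 is the best known LXR target and because Ch25h had the largest difference between stages among the 9 genes. RefSeq (GRCm38.p6) gave 11 windows of 300 bases, from 250 before to 50 after an annotated start, for 8 of the 9 genes. The 250 bases before the start are shown, read along the gene's minus strand, at chr4:53159896-53160145 for Abca1 and chr19:34475149-34475398 for Ch25h. Capitals in Abca1 mark the match, on the opposite strand of the gene, to the direct repeat that LXRs are known to bind, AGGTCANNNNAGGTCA, with up to 3 mismatches. Capitals in Ch25h mark the cyclic AMP response element letters TGACGTCA.
Abca1: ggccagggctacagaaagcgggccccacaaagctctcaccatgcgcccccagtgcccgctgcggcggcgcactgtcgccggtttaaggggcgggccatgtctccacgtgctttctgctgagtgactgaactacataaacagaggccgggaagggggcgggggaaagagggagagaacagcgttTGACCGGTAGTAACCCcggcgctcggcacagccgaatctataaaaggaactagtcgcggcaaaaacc
Ch25h: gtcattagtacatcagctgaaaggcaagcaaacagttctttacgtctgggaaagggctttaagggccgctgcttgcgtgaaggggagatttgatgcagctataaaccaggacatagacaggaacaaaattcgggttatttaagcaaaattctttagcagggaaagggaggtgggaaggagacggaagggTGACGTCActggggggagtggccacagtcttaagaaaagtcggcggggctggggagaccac

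With the annotated start base counted as 0, the repeat in Abca1 lay at -67 to -52, and Abca1 held the single match to it among the 11 windows. Of 32851 mouse promoter windows of the same length, 21.9% held a match with up to 3 mismatches on either strand and 3.02% one with up to 2, so a match of this looseness is common. The letters TGACGTCA lay at -61 to -54 in Ch25h, in 1 of the 11 windows and 1.79% of all. The letters TTCNNNNGAA, of the kind bound by STAT6, the transcription factor of IL4 signalling, were in 0 of the 11 windows and 6.95% of all windows on either strand. These are matches of letters in short windows, the motifs were chosen with the windows in view, and binding was not measured.

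Ch25h lies on chromosome 19 (34473786 to 34475135, minus strand, GRCm38) and encodes the enzyme that turns cholesterol into an oxysterol secreted by macrophages. It had no read in any of the 3 precursor libraries, which allows up to 0.0572 CPM at 3 reads over the group. Immature macrophages had 9, 3 and 9 reads, or 0.709, 0.307 and 1.15 CPM. Mature macrophages had 64.1, 95.3 and 108 CPM. The 3 stages did not overlap, and the mature libraries held nearly all of the reads of the gene.

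In the fit of mature against immature macrophages, Ch25h differed by 6.97 ± 0.41 on the log2 scale (SE). Adjusted p-values for the stages are those of the quasi-likelihood test of edgeR, adjusted over 13359 genes. Mature macrophages had at least 1553-fold more than precursors, with 3 reads set as the floor over the precursor group, and immature macrophages at least 12.1-fold more. Without precursor library 2 these bounds were 819-fold and 6.39-fold, the lowest of those that left out 1 library. Ch25h passed the filter on low counts only through its mature libraries and missed it in a fit of immature macrophages and precursors alone. Its differences from precursors are therefore given as these bounds, and no p is given for Ch25h between any stages. Counting floors cover counting error only. Gm26902, a gene on the opposite strand that overlaps Ch25h, held 114 reads in the differentiation table against 3040 for Ch25h, and whether the counting used strand is not stated in the labels.

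**Figure D1:**
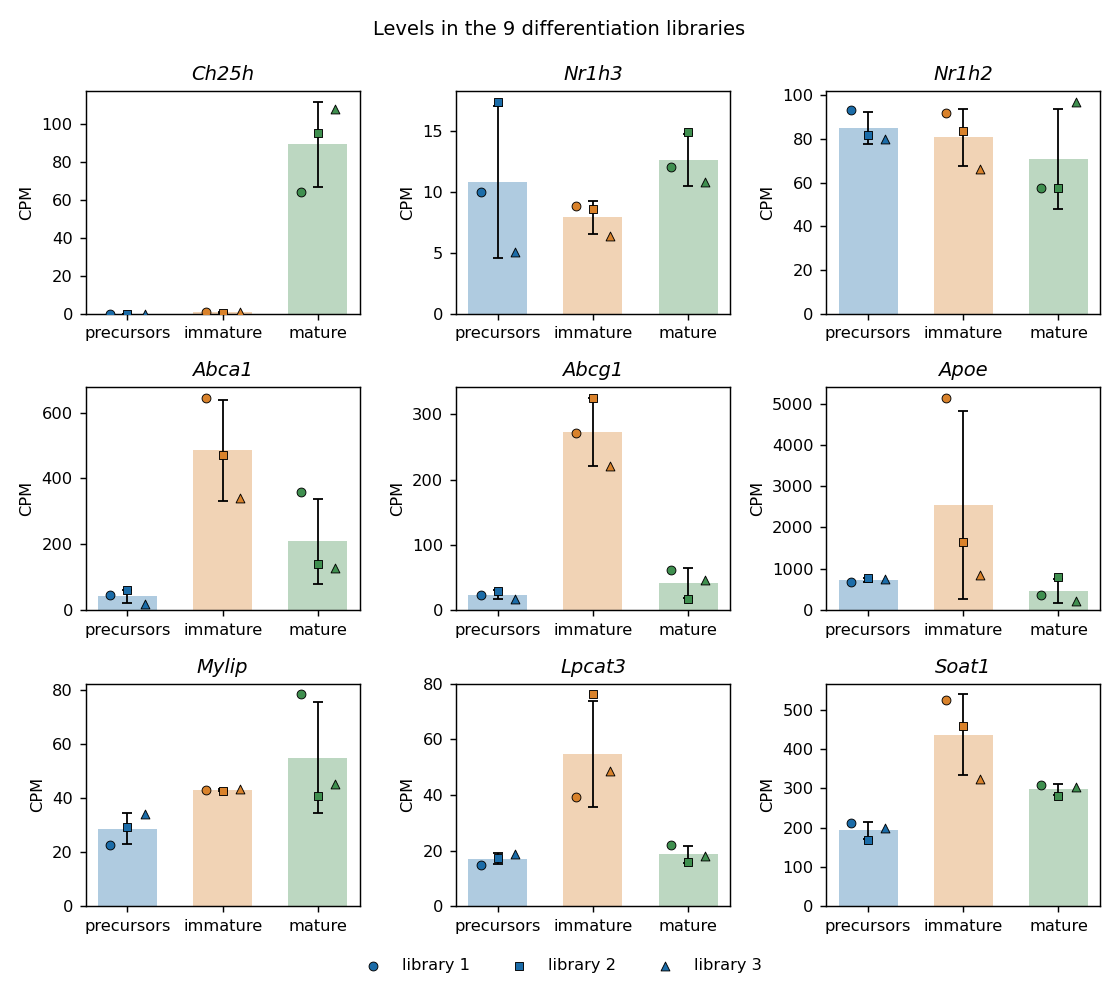
Levels of the 9 genes in CPM (linear axes from 0) in precursors, immature and mature macrophages. Bars are means, error bars SD, and symbols the 3 libraries of each group; Abca1, Abcg1, Apoe, Lpcat3 and Soat1 had their highest mean in immature macrophages, and Ch25h in mature macrophages, at 64.1 to 108 CPM.

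The receptor genes made no called change during differentiation. Nr1h2 (chromosome 7, 44549616 to 44553951, minus strand), the form found in most tissues, averaged 84.9 ± 7.21 CPM in precursors, 80.7 ± 13.1 in immature and 70.7 ± 22.9 in mature macrophages (SD, n = 3 each, as in all means that follow). Nr1h3 (chromosome 2, 91184061 to 91202834, minus strand), the form known from liver, fat and macrophages, had 10.0, 17.4 and 5.05 CPM in precursors. Its immature libraries had 8.82, 8.59 and 6.39 CPM and its mature libraries 12.1, 15.0 and 10.8 CPM. Neither receptor gene passed the test in any of the 3 stage comparisons, with adjusted p between 0.284 and 0.809. Without mature library 3, whose 97.1 CPM was the highest of its group, Nr1h2 was lower in mature macrophages than in precursors (-0.55, adjusted p = 0.0234). The mature libraries of Nr1h3 all lay above the immature ones, by 0.66 ± 0.39 on the log2 scale (adjusted p = 0.284), while both overlapped the precursors.

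Per kilobase of exon, Nr1h2 was above Nr1h3 in all 15 libraries. The log2 ratio of Nr1h3 to Nr1h2 (CPM per kilobase) averaged -2.73 ± 0.88 in precursors, -2.93 ± 0.06 in immature and -2.04 ± 0.64 in mature macrophages. With IL4 it averaged -1.20 ± 0.66, against -1.82 ± 0.88 without it. The difference of mature from immature macrophages was 0.89 (two-sided exact permutation p = 0.1, the smallest that 3 against 3 libraries can give), and that of IL4 from unstimulated cells 0.62 (exact permutation p = 0.5, n = 3 each). The other comparisons gave exact permutation p = 0.7 for immature macrophages and 0.3 for mature macrophages against precursors. The share of Nr1h3 in the sum of both, a ratio within each library that its scaling does not touch, was lowest, at 7.78%, in precursor library 3 and highest, at 42.4%, in IL4 library 2.

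**Figure D2:**
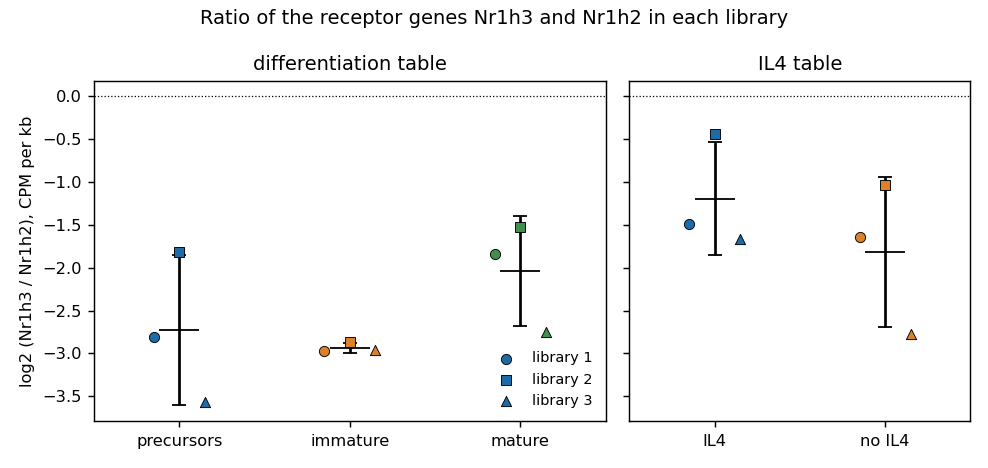
Log2 ratio of Nr1h3 to Nr1h2, each in CPM per kilobase of exon, in every library; horizontal marks are group means and error bars SD over 3 libraries. All 15 libraries lie below the dotted line of equal levels, and the libraries of mature and immature macrophages do not overlap.

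Of the genes with reads in precursors, the exporters Abca1 and Abcg1 rose furthest in immature macrophages. Abca1 (chromosome 4, 53030787 to 53159895, minus strand) moves cholesterol and phospholipid onto lipid-poor apolipoprotein. It had 45.3, 59.8 and 19.7 CPM in precursors, 645, 470.3 and 340.4 CPM in immature and 358, 141 and 128 CPM in mature macrophages. Immature and mature libraries thus all lay above the precursors, and they overlapped each other through mature library 1. Immature macrophages stood 3.54 ± 0.51 above precursors on the log2 scale (adjusted p = 0.000271), or 11.6-fold. Mature macrophages were 2.33 ± 0.48 above precursors (adjusted p = 0.00214). Against immature macrophages, mature ones were at -1.22 ± 0.47 (adjusted p = 0.106). With the mouse number as a block this last difference was called, at -1.29 (adjusted p = 0.0304), and without mature library 1 it was -1.85 (adjusted p = 0.0243).

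Abcg1 (chromosome 17, 31057698 to 31115777, plus strand) exports cholesterol to mature lipoproteins. Precursors had 23.6, 29.9 and 16.2 CPM, immature macrophages 271, 325 and 221 CPM, and mature macrophages 61.8, 17.0 and 46.7 CPM. The immature libraries stood clear of both other stages, which overlapped. The rise in immature macrophages over precursors was 3.55 ± 0.43 (log2, adjusted p = 8.87e-05), 11.7-fold and close to that of Abca1. Against immature macrophages, Abcg1 fell by 2.70 ± 0.41 in mature ones (adjusted p = 0.00191). Mature macrophages were at 0.85 ± 0.39 over precursors (adjusted p = 0.0909), and at 1.23 with adjusted p = 0.00506 without mature library 2, the lowest of its group.

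Apoe (chromosome 7, 19696109 to 19699188, minus strand) encodes the apolipoprotein that macrophages secrete to take up exported cholesterol, and it was the most abundant of the 9 genes per kilobase at every stage. Precursors had 678, 777 and 748 CPM, a narrow range. Immature macrophages had 5142, 1648 and 841 CPM, and mature macrophages 371, 789 and 227 CPM. The immature libraries all lay above both other stages, but they spread widely among themselves, library 1 being far above the others. Apoe rose by 1.79 ± 0.61 in immature macrophages over precursors (log2, adjusted p = 0.0311) and fell by 2.46 ± 0.62 in mature against immature ones (adjusted p = 0.0237).

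Neither Apoe call held without immature library 1. Without immature library 1 the rise over precursors was 0.77 (adjusted p = 0.181) and the mature value against immature was -1.43 (adjusted p = 0.071). With the mouse number as a block the rise was 1.47 (adjusted p = 0.0574). The same immature libraries 1, 2 and 3 had 795, 335 and 158 CPM of Pltp, a phospholipid transfer protein gene, which is a known LXR target, and 229, 92.8 and 47.5 CPM of Cyp27a1, an oxysterol-making enzyme gene. Mki67, a gene of dividing cells, had 105, 330.4 and 359 CPM in these libraries. Library 1 was therefore highest in Apoe, Pltp and Cyp27a1 and lowest in Mki67, and the part of this in the result was not tested.

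Lpcat3 (chromosome 6, 124663027 to 124704418, plus strand) places polyunsaturated fatty acids into membrane phospholipids. Its levels were 14.9, 17.4 and 18.9 CPM in precursors, 39.4, 76.3 and 48.8 CPM in immature and 22, 15.9 and 18.2 CPM in mature macrophages. It rose by 1.69 ± 0.26 in immature macrophages over precursors (log2, adjusted p = 0.000387) and fell by 1.55 ± 0.26 in mature against immature ones (adjusted p = 0.00294). Mature macrophages and precursors overlapped, at 0.14 ± 0.25 (adjusted p = 0.666). Emg1, on the opposite strand, overlaps Lpcat3 and held 6556 reads in the table against 3167 for Lpcat3.

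Soat1 (chromosome 1, 156424525 to 156474331, minus strand) esterifies cholesterol for storage in droplets, the opposite fate to export. Precursors had 211, 169 and 200.2 CPM, immature macrophages 526, 459.9 and 323 CPM, and mature macrophages 308, 282 and 303 CPM. All 3 stages stood apart from one another. The rise over precursors was 1.18 ± 0.20 in immature macrophages (log2, adjusted p = 0.000893) and 0.62 ± 0.20 in mature ones (adjusted p = 0.0232), and mature against immature was -0.55 ± 0.20 (adjusted p = 0.0925). The rise in mature macrophages was not called without precursor library 2 (adjusted p = 0.0908) or without precursor library 3 (adjusted p = 0.0513).

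Mylip (chromosome 13, 45389742 to 45412022, plus strand) encodes the ligase that marks lipoprotein receptors for degradation. It had 22.7, 29.3 and 34.3 CPM in precursors, 43.1, 42.7 and 43.4 CPM in immature and 78.5, 40.9 and 45.4 CPM in mature macrophages. It rose by 0.94 ± 0.25 in mature macrophages over precursors (log2, adjusted p = 0.00987), with no overlap. Immature macrophages lay above precursors in every library, at 0.58 ± 0.25 (adjusted p = 0.0788), and this difference was called in a fit of only the 6 libraries compared (adjusted p = 0.0198).

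In all, 6 of the 9 genes were called higher in immature macrophages than in precursors and 0 lower, while 22.5% of all genes tested rose, 26.6% fell and 49.2% were called. The 6 include Ch25h, which was tested only because of its mature libraries, and without it 5 of 8 rose. Libraries of both groups did not overlap for 7 of the 9 genes, 6 of the 8 without Ch25h, and for 65.0% of all genes. The median was 1.43 on the log2 scale for those 8 genes, against -0.07 over all genes tested. Between mature and immature macrophages 0 of the 8 genes other than Ch25h rose and 3 fell (Abcg1, Apoe and Lpcat3), while 7.52% of all genes rose and 7.38% fell. Of all genes 14.9% were called, and the medians were -0.88 for the 8 and 0 for all. Here 5 of the 8 did not overlap, and 32.2% of all genes. Between mature macrophages and precursors 3 of the 8 rose and 0 fell, while 25.8% of all genes rose, 28.5% fell and 54.3% were called, and 3 of the 8 and 64.1% of all genes did not overlap. These comparisons share libraries, so they are not independent of each other. The neutrophil markers given above moved with the step out of the precursor stage. Their part in these results was not tested.

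**Figure D3:**
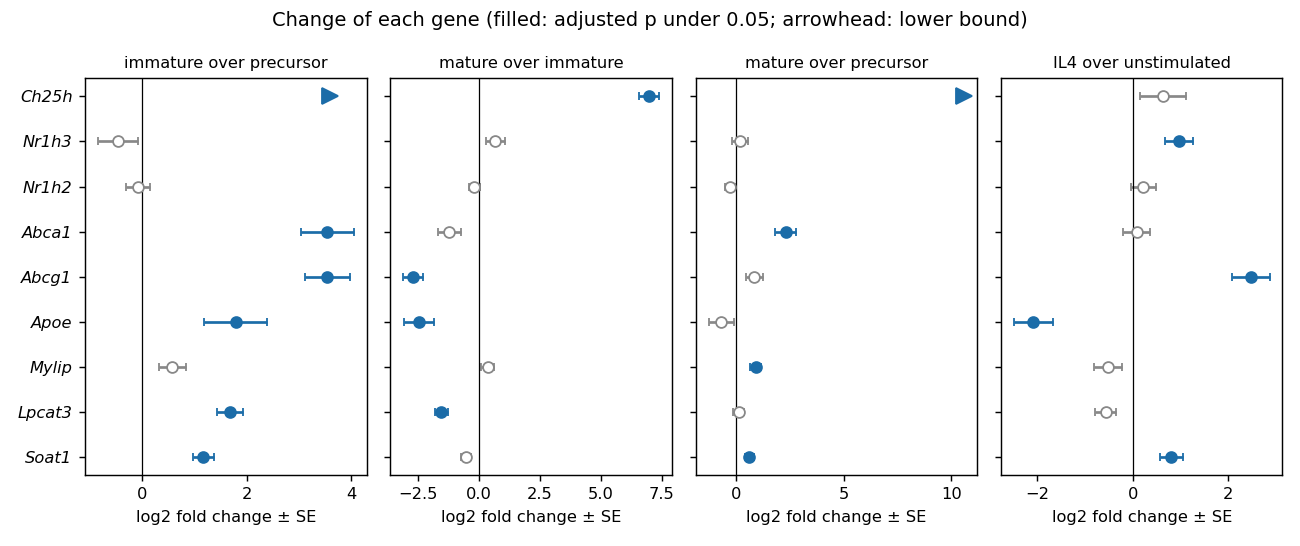
Log2 fold change with its SE for each gene in the 4 comparisons, with a separate axis per panel. Ch25h entered the test of mature against immature macrophages only through its mature libraries. Filled circles passed an adjusted p under 0.05, open circles did not, and arrowheads are lower bounds for Ch25h against precursors, which had no read; 5 of the 8 genes other than Ch25h rose in immature macrophages over precursors, and 3 fell in mature against immature macrophages.

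The order of the 9 genes per kilobase of exon changed between stages. In precursors Apoe (343 ± 23.9 CPM per kilobase), Nr1h2 (25.3 ± 2.15), Soat1 (19.7 ± 2.25) and Mylip (8.89 ± 1.79) came first and did not overlap. Lpcat3, Nr1h3, Abca1 and Abcg1 followed at 5.22 to 3.18 CPM per kilobase with overlapping libraries, and Ch25h was last. In immature macrophages Abca1 (46.8 ± 14.8), Soat1 (44.6 ± 10.6) and Abcg1 (37.3 ± 7.16) came after Apoe and overlapped each other, all above Nr1h2 at 24.1 ± 3.89. In mature macrophages Ch25h took the place after Apoe, at 64.3 ± 16.3 CPM per kilobase, with no overlap with Apoe at 216 ± 137 or with Soat1 at 30.4 ± 1.42.

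Among 8720 genes with at least 10 CPM on average, Stard3, D17Wsu92e and Zdhhc7 had the patterns most like Abca1 over the 9 differentiation libraries (Pearson r of log2 CPM 0.992, 0.991 and 0.981). Stard3 is a cholesterol transport gene of late endosomes. Abcg1 was most like Cd28, Bcat2 and Atp13a2 (r = 0.962, 0.958 and 0.956), and Soat1 most like Ctns, Aph1c and Socs6 (r = 0.989, 0.985 and 0.978). Lpcat3 was most like Btd, Nsdhl, which is a cholesterol synthesis gene, and Retreg2 (r = 0.971, 0.967 and 0.954). Ch25h was most like Eaf1, Rhob and Calcrl (r = 0.987, 0.985 and 0.985), and Apoe most like Irf1, Ier3 and Parp2 (r = 0.952, 0.947 and 0.947). These are descriptions over 9 libraries that share 3 stages, so any genes that differ between stages in the same order are alike.

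IL4 is a cytokine of type 2 immunity, and of the exporters Abcg1 passed the test with it and Abca1 did not. The difference between these responses was not tested. Abcg1 had 442, 239.7 and 281 CPM with IL4, against 99.3, 36.2 and 35.9 CPM without it. All treated libraries lay above all untreated ones, and the rise was 2.48 ± 0.39 on the log2 scale (adjusted p = 0.00106), or 5.56-fold. It was between 4.45-fold and 7.83-fold in the 3 pairs of libraries with the same number in their titles. Per kilobase Abcg1 was the highest of the 9 genes with IL4, at 44.0 ± 14.6 CPM per kilobase, against 7.83 ± 5.0 without it. Without IL4 Apoe was the highest per kilobase, at 58.6 ± 25.5, and overlapped Mylip at 30.7 ± 7.81.

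Abca1 had 295, 126 and 166 CPM with IL4, against 220.2, 151 and 184 CPM without it. The groups overlapped, and the difference was 0.08 ± 0.28 on the log2 scale (adjusted p = 0.895), with 1 of 3 pairs of the same number higher. The difference turned to -0.34 without IL4 library 1 (adjusted p = 0.340), to -0.04 without unstimulated library 2 and to -0.05 with limma on the deposited log2 values.

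Apoe moved the other way. It had 46.5, 14.9 and 27.3 CPM with IL4, against 172, 65.4 and 139 CPM without it. All treated libraries lay below the untreated ones, and Apoe fell by 2.08 ± 0.41 on the log2 scale (adjusted p = 0.00416). With IL4 each library had 0.197 to 0.271 of the level of its same-numbered untreated library. Over the 6 libraries its pattern was most like that of Cd14, Arhgap15 and Cfp (r = 0.986, 0.985 and 0.977), and that of Abcg1 like those of Psma4, Ppp2r2d and Calu (r = 0.998, 0.997 and 0.996).

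Soat1 had 247, 183 and 161 CPM with IL4, against 153, 84.7 and 98.2 CPM without it, a rise of 0.81 ± 0.25 (log2, adjusted p = 0.0397). Nr1h3 had 15.2, 24.5 and 12.5 CPM with IL4, against 10.5, 9.46 and 6.65 CPM without it, a rise of 0.97 ± 0.30 (adjusted p = 0.0413) on 38 to 74 reads per treated and 23 to 45 per untreated library. In both genes all treated libraries lay above all untreated ones. Both rises lost their call without unstimulated library 2 (adjusted p = 0.149 for Soat1 and 0.0969 for Nr1h3), without unstimulated library 3 (0.123 and 0.141) and without IL4 library 2 (0.0724 and 0.191). Soat1 lost it also without IL4 library 1 (adjusted p = 0.107). Nr1h2, the other receptor gene, averaged 51.3 ± 6.42 CPM with IL4 and 43.4 ± 17.3 CPM without it (0.23 ± 0.27, adjusted p = 0.649), and whether the receptor genes differed in their response is covered by the ratio above.

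The remaining genes overlapped between IL4 and untreated cells. Lpcat3 averaged 31.9 ± 4.86 CPM with IL4 and 46.9 ± 10.2 CPM without it (log2 -0.56 ± 0.22, adjusted p = 0.0952). Mylip averaged 69.3 ± 29.8 CPM with IL4 and 99.1 ± 25.3 CPM without it (-0.52 ± 0.29, adjusted p = 0.266). Both were lower with IL4 in 3 of 3 pairs with the same number in their titles. With that number as a block both were called (Lpcat3 adjusted p = 0.0217, Mylip 0.0178), a pairing that the column names of the IL4 table go against. Ch25h had 22.4, 9.26 and 6.57 CPM with IL4, against 12.9, 8.23 and 3.94 CPM without it (0.63 ± 0.49, adjusted p = 0.442). Its treated library was higher in 3 of 3 pairs, by 1.13-fold to 1.74-fold, and the block gave an adjusted p of 0.0336. Library 1 was the highest in both groups.

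**Figure D4:**
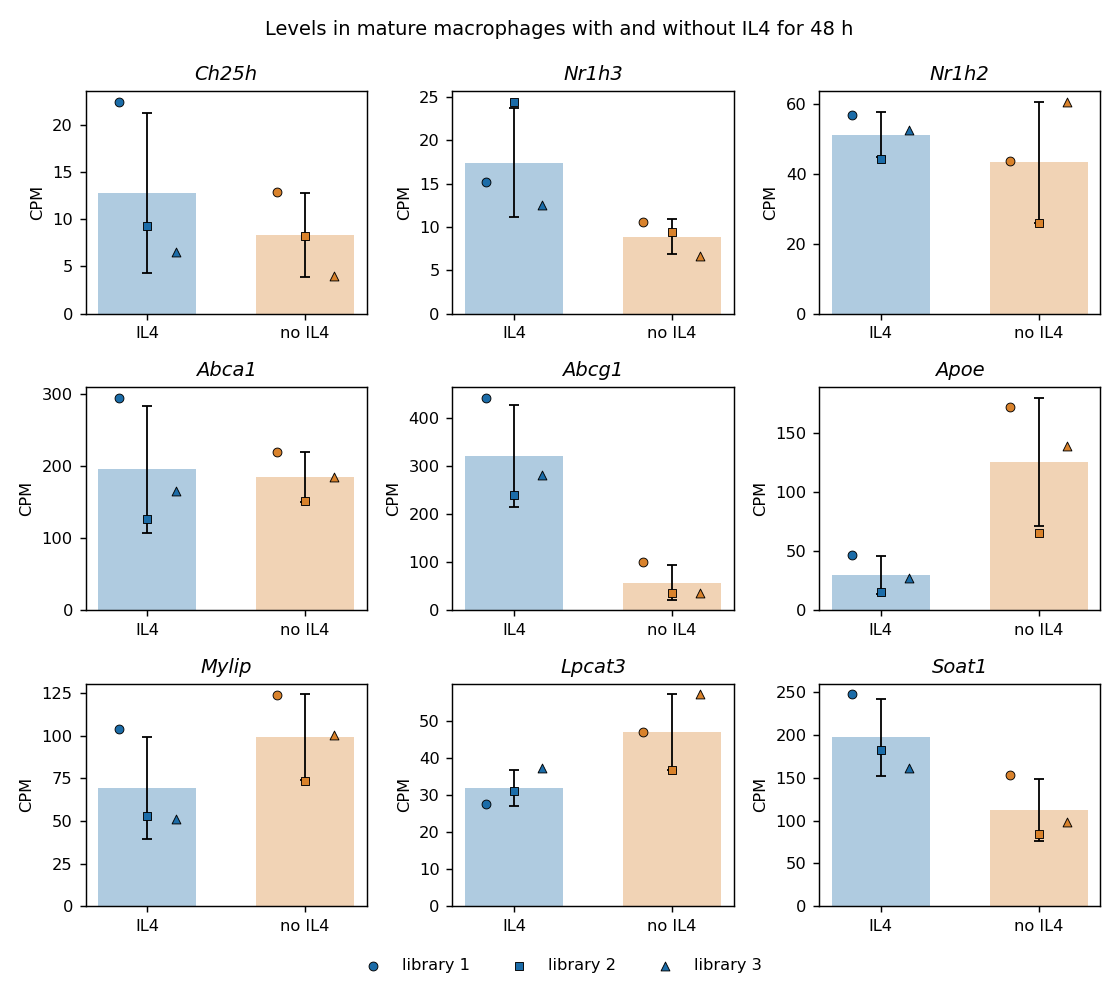
Levels of the 9 genes in CPM (linear axes from 0) in mature macrophages with 20 ng/ml IL4 for 48 h and without it. Bars are means, error bars SD, and symbols the 3 libraries of each group; all IL4 libraries lie above the untreated ones for Abcg1, Soat1 and Nr1h3 and below them for Apoe.

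With IL4, 3 of the 9 genes rose and 1 fell, while 10.5% of all genes tested rose, 10.3% fell and 20.8% were called. The median difference was 0.23 for the 9 genes and 0.01 over all genes. The libraries of both groups did not overlap for 4 of the 9 genes and for 35.9% of all. For all 9 genes in all 4 comparisons, 36 pairs of gene and comparison, the authors' deposited table of genes under an FDR of 0.05 made the same call as the fit here. Those calls rest on the same libraries, and the submitters' processing notes also name edgeR, so they are not independent support. In the authors' deposited table the FDR with IL4 was 6.61e-09 for Abcg1, 7.64e-06 for Apoe, 0.0324 for Soat1 and 0.0476 for Nr1h3.

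Another 72 genes of the circuit were taken from lists of its parts, of which 60 passed the filter on low counts in differentiation and 52 in the IL4 table. In immature macrophages over precursors 28 of the 60 rose, where 22.5% of all genes did, and 15 fell, a share close to the 26.6% of all genes. Of 7 partners, corepressors and coactivators of the receptors 1 rose and 4 fell, where 49.2% of all genes were called in either direction. Rxra, a retinoid X receptor gene, rose by 2.27 ± 0.25 (log2, to 132 ± 43.3 CPM, against 27.2 ± 1.75 CPM in precursors), and the corepressor gene Ncor1 fell by 1.38 ± 0.16. Of 16 genes of cholesterol transport and hydrolysis 11 rose and 1 fell, against the same 22.5% and 26.6% of all genes. Among those that rose were Nceh1, which hydrolyses cholesteryl esters (2.73 ± 0.22), the lysosomal lipase gene Lipa (2.05 ± 0.23) and Npc1, which moves cholesterol out of lysosomes (1.51 ± 0.20). In mature against immature macrophages 1 of the 16 rose and 4 fell, where 7.52% and 7.38% of all genes did, the largest fall being that of Scarb1, a receptor gene for high-density lipoprotein (-1.99 ± 0.25).

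Other known LXR targets moved at both steps. Of 15 tested, 7 rose and 3 fell in immature macrophages over precursors, where 22.5% of all genes rose and 26.6% fell. In mature against immature macrophages 1 rose and 8 fell, where 7.52% of all genes rose and 7.38% fell, and 1 of the 8 missed the filter on low counts with only the 6 libraries compared. Pltp rose by 5.08 ± 0.60 to 429.6 ± 329 CPM in immature macrophages, against 12.6 ± 3.52 CPM in precursors. Scd1, a fatty acid desaturase gene, had no read in mature macrophages, against 95 ± 15.7 CPM in immature ones, at least 1061-fold lower with 3 reads over the mature group as the floor. Its relative Scd2 had 1.11 ± 0.99 CPM in mature and 533 ± 328 CPM in immature macrophages. Myo1e was the 1 that rose, by 1.25 ± 0.24. Of 11 genes of oxysterol handling, Insig1, whose protein holds back cholesterol synthesis, rose by 2.96 ± 0.30 in immature macrophages over precursors and fell by 2.58 ± 0.29 in mature against immature ones, and Cyp27a1 fell by 3.17 ± 0.53 in the second comparison.

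Lrp8 and Vldlr encode lipoprotein receptors that Mylip is known to degrade. In immature macrophages over precursors Lrp8 fell by 2.02 ± 0.56 and Vldlr fell by 4.49 ± 0.69. With IL4, Lrp8 averaged 8.66 ± 2.81 CPM, against 31.5 ± 2.76 CPM without it (-1.88 ± 0.25).

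With IL4, 7 of the 52 genes tested rose and 14 fell, where 10.5% and 10.3% of all genes did. Lpl, the lipoprotein lipase gene, averaged 4193 ± 744 CPM with IL4 and 878 ± 216 CPM without it, a rise of 2.26 ± 0.23. Stard4, a sterol carrier gene, fell by 2.32 ± 0.28, Scarb1 by 1.11 ± 0.19, Insig1 by 1.32 ± 0.29 and Rxra by 0.81 ± 0.21. Gpr183, the receptor gene for an oxysterol derived from the product of Ch25h, averaged 2.73 ± 1.40 CPM with IL4 and 12.9 ± 6.25 CPM without it, a fall of 2.29 ± 0.43. Among the acyltransferase genes beside Lpcat3, Lpcat2 fell by 2.72 ± 0.32 with IL4, to 20.2 ± 4.06 CPM, against 133 ± 61.3 CPM without it. Mboat2 had 79 reads with IL4 and none without it, at least 28.9-fold higher with 3 reads over the untreated group as the floor.

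**Figure D5:**
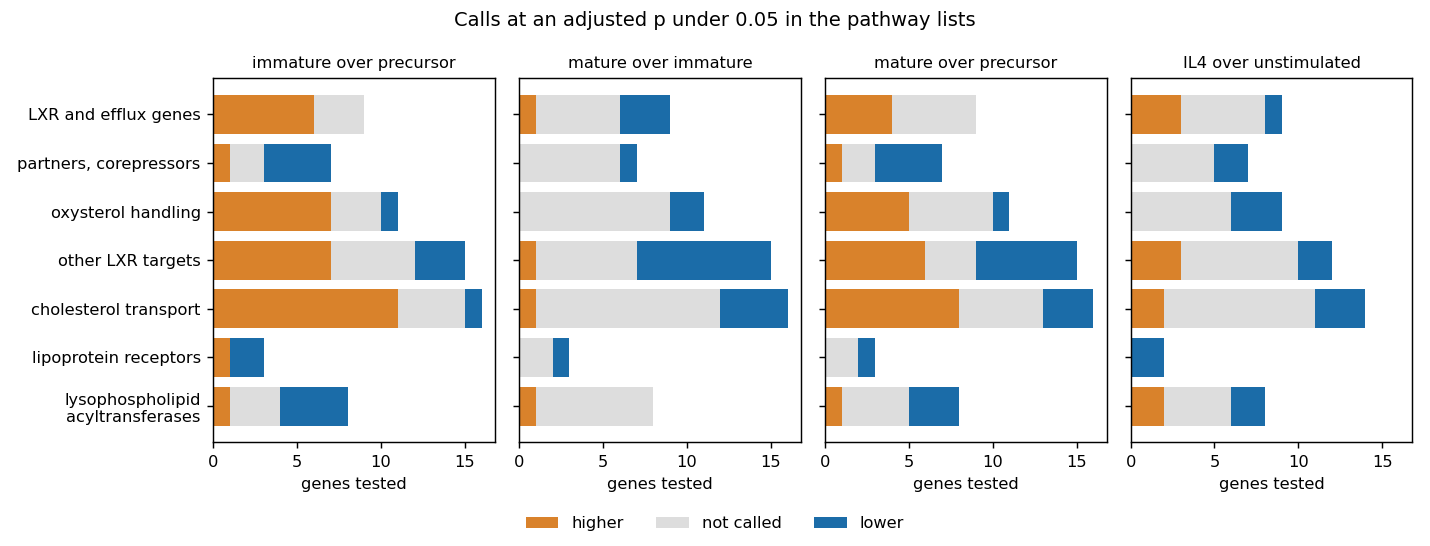
Number of genes tested in each list of the circuit, split into higher, not called and lower at an adjusted p under 0.05, for the 4 comparisons. In immature macrophages over precursors 11 of 16 cholesterol transport genes were higher, against 22.5% of all genes, and in mature against immature macrophages 8 of 15 other LXR targets were lower, against 7.38% of all genes.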

How the data were processed

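Alignment was by HISAT2 2.0.5 and edgeR was used, per the submitters' processing notes, which list GRCm38.p6 and GRCm39.p6 as builds. How reads were assigned to genes, and whether by strand, is not given in the sources used here. What the authors deposited is a table of raw counts for differentiation and another for IL4, log2 RPM of the same libraries (used as an alternative) and lists with an adjusted p-value (FDR). Coordinates are those of the deposited tables, which lie on GRCm38, and for Apoe, Mylip and Soat1 those of the differentiation table, since the IL4 table differs slightly.

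The tests used edgeR 4.0.16 in R 4.3.3: filterByExpr with a minimum count of 10, TMM scaling, glmQLFit and glmQLFTest without covariates, 1 fit per table, Benjamini-Hochberg adjustment over the 13359 and 8936 genes tested, and a call under 0.05. The fit was also run on simulated counts with the same spread between libraries set for every gene. Real genes differ in that spread, so the run does not measure the error rates of the calls given here. Levels are TMM-scaled CPM, per kilobase of merged GENCODE M21 exons where genes are compared. Alternatives were DESeq2 1.42.0, limma 3.58.1, RLE scaling, other filters, only the 6 libraries compared, a mouse-number block, an adjusted p under 0.001 and leaving out each library. Like patterns were the 3 genes with the highest Pearson r, for genes whose highest group mean was at least 2 times the lowest. Up to 4 called genes per list and comparison could be named, by lowest p with at least 5 CPM. Some genes so taken are not reported here.

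The 9 genes, the lists and the tests were chosen with earlier results of these data known. The titles give a mouse number, 1 to 3, in every group, and this was taken as pairing for the block and the pairs. The columns of the IL4 table carry other mouse numbers, none of them shared between treated and untreated libraries. Deviations from the group means correlated between same-numbered libraries by 0.175 to 0.591 in the IL4 table and by -0.129 to 0.165 in differentiation. Between libraries of different title numbers the ranges were -0.487 to 0.247 and -0.128 to 0.139, so they overlapped in both tables. Beyond the mouse numbers nothing says that libraries came from separate cultures, so p-values measure the spread between these libraries.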

Additional observations from a re-analysis of the deposited data

How the results depend on the processing

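Each gene's difference in each comparison was recomputed under every alternative that could be fitted. Over all these pairs of a difference and an alternative, 496 kept the direction and the side of the threshold, 20 lost a call, 13 gained one and 10 turned sign, none of the last a call. For immature macrophages over precursors, Nr1h3 turned to 0.071 (log2) with limma, and over fits without 1 library it ran from -0.79 to 0.076, Nr1h2 from -0.17 to 0.099. Nr1h3 in mature macrophages over precursors ran from -0.13 to 0.74. With IL4, Abca1 turned to -0.047 with limma and ran from -0.34 to 0.32, Nr1h2 from -0.021 to 0.54 and Ch25h from -0.085 to 1.17. The cause was not tested.

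With a stricter adjusted p, under 0.001, 0 genes stayed lower in mature against immature macrophages, and 0 higher and 0 lower with IL4. In mature macrophages over precursors only Ch25h stayed higher, and none of the other genes did. Ch25h passed the filter on low counts only through its mature libraries, so its call there is no support. Without 1 library, the count lower in mature macrophages over precursors ran from 0 to 1 and the counts with IL4 from 1 to 3 higher and from 1 to 2 lower. The replicate block gave 3 lower and 4 higher with IL4, adding Lpcat3, Mylip and Ch25h, and over all genes 2882 calls against 1858. Calls over all genes between mature and immature macrophages were 1991, and 1245 with only the 6 libraries compared, 1262 without immature library 1 and 1007 without immature library 2. Calls of Apoe in immature macrophages over precursors were lost with limma (adjusted p = 0.138), the block and without each precursor library (0.091, 0.0739 and 0.0764), and in mature against immature macrophages with only the 6 libraries (0.0641) and without mature library 1 (0.0744) or 3 (0.0547). Soat1 in mature macrophages over precursors lost its call with limma (0.0677). Calls were gained by Abca1 in mature against immature macrophages with DESeq2 (0.043), by Soat1 there without immature library 3 (0.0231), by Mylip in immature macrophages over precursors with limma (0.0427) and without mature library 1 (0.0188), and by Mylip with IL4 without IL4 library 1 (0.0145). Low counts limit Ch25h in immature macrophages and Nr1h3 throughout, and Ch25h in immature macrophages over precursors was not tested with only the 6 libraries compared, where it missed the filter.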
